A study of Rattus norvegicus with 18 samples.

Results

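The NF-kB factors and inflammatory targets of cultured heart muscle cells were described from a list of 10 gene symbols. Rows of the FPKM table (fragments scaled to transcript length and to the mapped fragments of the library) were taken where the identifier was a listed symbol, which gave 8 rows of 17303 in all. They were the factor genes Nfkb1 and Nfkb2, the inhibitor gene Nfkbia, the chemokine genes Ccl2 and Cxcl1, the cytokine gene Il6, and the adhesion genes Vcam1 and Icam1; Relb and Tnfaip3 were not analysed here. The 18 RNA libraries came from ventricular myocytes of Wistar rats at postnatal day 3 and fall into 6 groups with 3 replicates apiece. All cultures, controls included, were held for 48 h in AraC, which is toxic to proliferating cells, and then for 24 h without serum, before 48 h of treatment. The groups were Vehicle, 10 µM phenylephrine (PE, an agonist of alpha1-adrenergic receptors), PE with the CDK8 kinase inhibitor Senexin A at 10 µM or at 50 µM, and Senexin A alone at 10 µM or at 50 µM. The comparisons asked which transcripts the hypertrophic stimulus changed and what an inhibitor of the Mediator kinase changed with and without it. The labels do not say whether replicates were separate cultures or litters, so the p-values measure the spread between these libraries, which may be technical.

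NF-kB proteins are dimeric transcription factors that inhibitors of the IkB family hold in the cytoplasm. Inflammatory signals activate the IkB kinases, the inhibitors are degraded, and the dimers enter the nucleus and bind kappaB sites near their target genes. Among those targets is Nfkbia itself, which encodes IkB alpha and so closes a feedback loop, and others encode chemokines, cytokines and adhesion proteins that draw leukocytes into injured heart tissue. CDK8, the kinase of the Mediator complex, is known as a positive cofactor of NF-kB-driven transcription in other cell types.

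Promoter sequences show the kind of site through which these genes are linked to NF-kB. RefSeq promoter windows (GRCr8, from 250 bases before to 50 after each start) were at hand for 7 of the 8 genes, all but Ccl2. A match to the kappaB consensus, on either strand, was found in 6 of these 7 windows and in 7.51% of all 33469 promoter windows; a looser consensus was met in 6 of 7 and in 10.5%. The windows below are 30 bases on the gene's strand with the matched bases in capitals, in the order of the genes' roles.
Nfkb1 (chr2:226805440-226805469, first matched base 4 bases after the start): cgacgtcagtGGGAATTTCCagccaggaag
Nfkb2 (chr1:255108344-255108373, 20 bases before the start): tggtattttcGGGACTTTCCtaagagcact
Nfkbia (chr6:78597084-78597113, 31 bases before, match on the opposite strand): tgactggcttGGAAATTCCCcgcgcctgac
Cxcl1 (chr14:17479386-17479415, 84 bases before, 2 overlapping matches): cctgtgctccGGGAATTTCCctggcctgga
Il6 (chr4:5894624-5894653, 68 bases before): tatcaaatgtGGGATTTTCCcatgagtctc
Vcam1 (chr2:206742857-206742886, 93 bases before, 2 overlapping matches): tccccttgaaGGGATTTCCCtccgcctctc
The same capitals stand in Nfkb1 and Cxcl1, and in Nfkbia when read on the opposite strand. The levels of these genes are described below and differ. No match lay in the Icam1 window, which says only that these letters are not in it. The genes were listed as NF-kB targets, so the share of windows with a match is a description.

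The libraries were those of muscle cells with other cells among them. All 8 cardiomyocyte markers stood at 37.1 FPKM or more in every library, led by Myl2, a ventricular myosin light chain (21313 to 80214 FPKM). The 10 fibroblast markers summed to 643 to 3269 FPKM, the 7 smooth muscle and pericyte markers to 1767 to 5990, the 8 macrophage and leukocyte markers to 18.2 to 400, and the 8 endothelial markers to 2.85 to 10.2. In such bulk RNA, fewer cells of a type and less RNA per cell cannot be told apart. Summed FPKM lay between 610324 and 660958 in Vehicle libraries, between 810428 and 853958 in those with PE alone, and between 699695 and 910958 where the inhibitor was present. Total reads were not given, so no counting interval could be set.

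FPKM is a level per transcript length, so it can be set side by side between genes. Over the 18 libraries Icam1 ran from 11.8 to 45.8 FPKM (median 23.0), Ccl2 from 5.40 to 46.1 (median 26.5), Nfkb1 from 13.6 to 29.6 (median 23.6), Nfkbia from 6.34 to 24.0 (median 12.2) and Nfkb2 from 9.53 to 13.9 (median 12). Vcam1 ran from 0.874 to 14.1 (median 4.32) and Cxcl1 from 0.487 to 3.21 (median 1.68). Il6 never passed 0.434 FPKM. Of the 8 genes, 7 met the filter of at least 1 FPKM in at least 3 libraries and were tested; Il6 did not. None of the 8 loci overlapped that of another row. On the rn5 build the table places Nfkb1 at chr2:259330376-259444869, Nfkb2 at chr1:273483942-273490197, Nfkbia at chr6:85803989-85807223 and Ccl2 at chr10:69047090-69048889. It places Cxcl1 at chr14:18653031-18654811, Il6 at chr4:3095535-3100112, Vcam1 at chr2:237158200-237177689 and Icam1 at chr8:22092154-22103917.

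**Figure D1:**
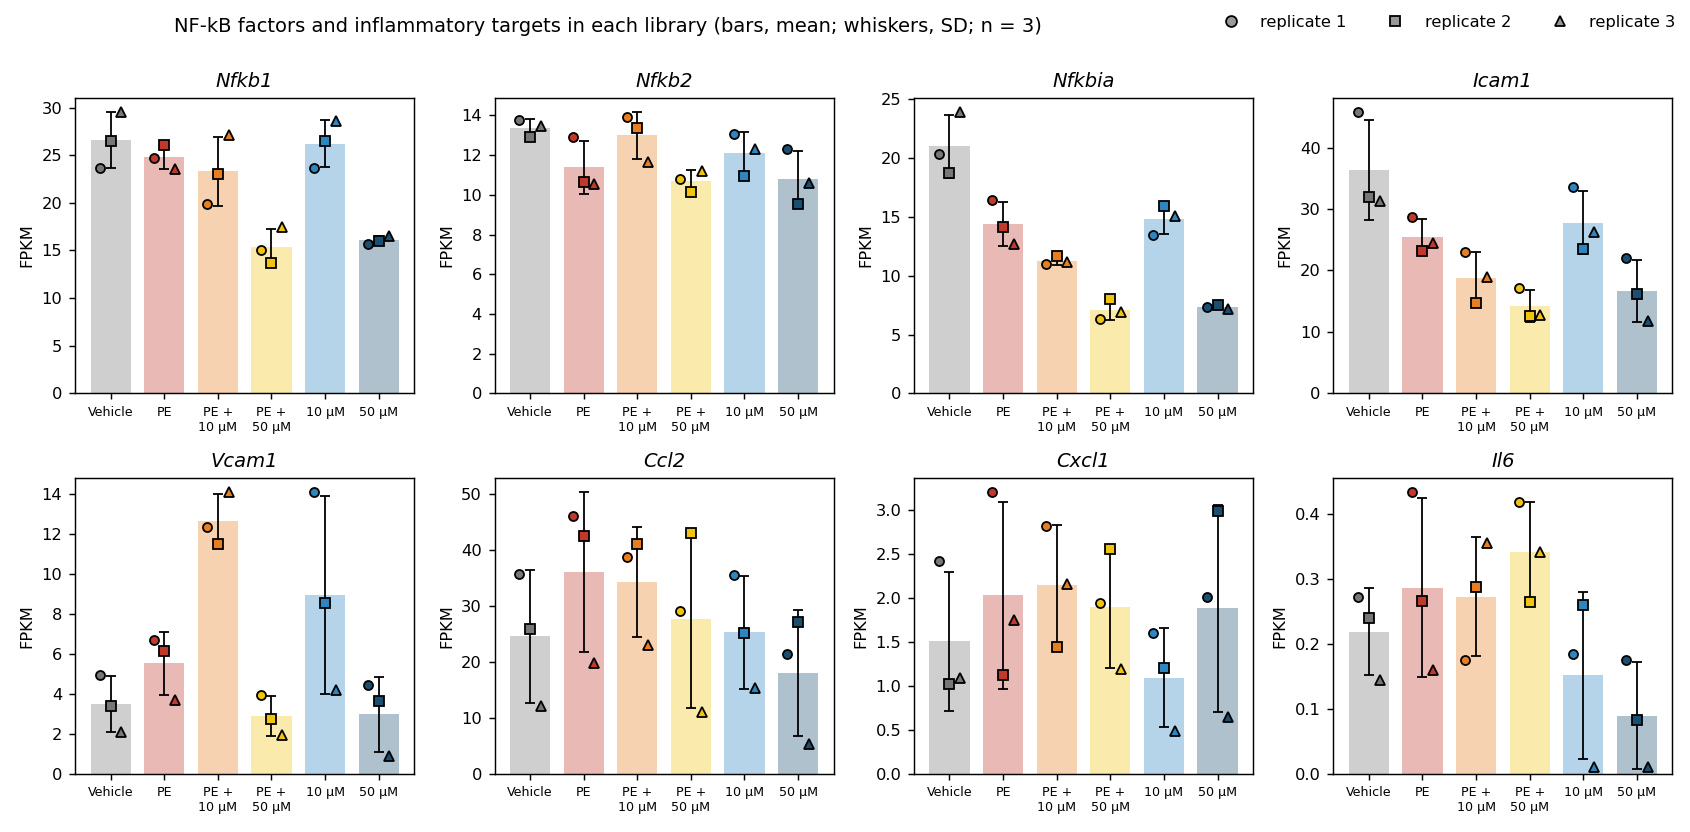
FPKM of each of the 8 genes (linear axes from 0) in the 6 groups; bars are means of 3 libraries, whiskers SD, and markers the libraries by replicate number. Nfkbia steps down from 18.7 to 24.0 FPKM in Vehicle to 6.34 to 8.04 in PE with 50 µM, while Vcam1 is high in PE with 10 µM (11.5 to 14.1).

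Calls were made with limma on log2(FPKM + 1) at an adjusted p under 0.05, over all 10478 tested rows. PE against Vehicle called 1 of the 7 genes (Nfkbia, lower), where 30.6% of all rows were called and 12.7% were called lower. Without PE, 10 µM against Vehicle called 1 (Nfkbia, lower; all rows 16.2% called, 7.01% lower) and 50 µM against Vehicle called 4 (Nfkb1, Nfkb2, Nfkbia and Icam1, lower; all rows 60.7% called, 30.2% lower). With PE, 10 µM against PE called 1 (Nfkbia, lower; all rows 17.0% called, 7.84% lower) and 50 µM against PE called 3 (Nfkb1, Nfkbia and Icam1, lower; all rows 56.7% called, 27.4% lower). No gene of the list was called higher in these 5 comparisons. Counted in either direction, the share of these 7 genes that was called lay below that of all rows in each of the 5 comparisons. Counted as lower only, it lay above that of all rows in each. These counts describe the list and were not tested.

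Libraries with the same replicate number deviated together from their group means, and a fit with that number as a block was run beside the main one. With the block, PE called 3 genes (Nfkb2, Nfkbia and Icam1; 42.2% of all rows). Without PE, 10 µM then called 3 (Nfkbia and Icam1 lower, Vcam1 higher; 26.4% of all rows) and 50 µM called 5 (Ccl2 in addition; 67.5%). With PE, 10 µM then called 3 (Nfkbia and Icam1 lower, Vcam1 higher; 27.9%) and 50 µM called 4 (Vcam1 in addition, lower; 64.0%). The share called with the block lay above that of all rows in each of these comparisons except 50 µM with PE, and by the most at 10 µM. These shares were not tested.

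**Figure D2:**
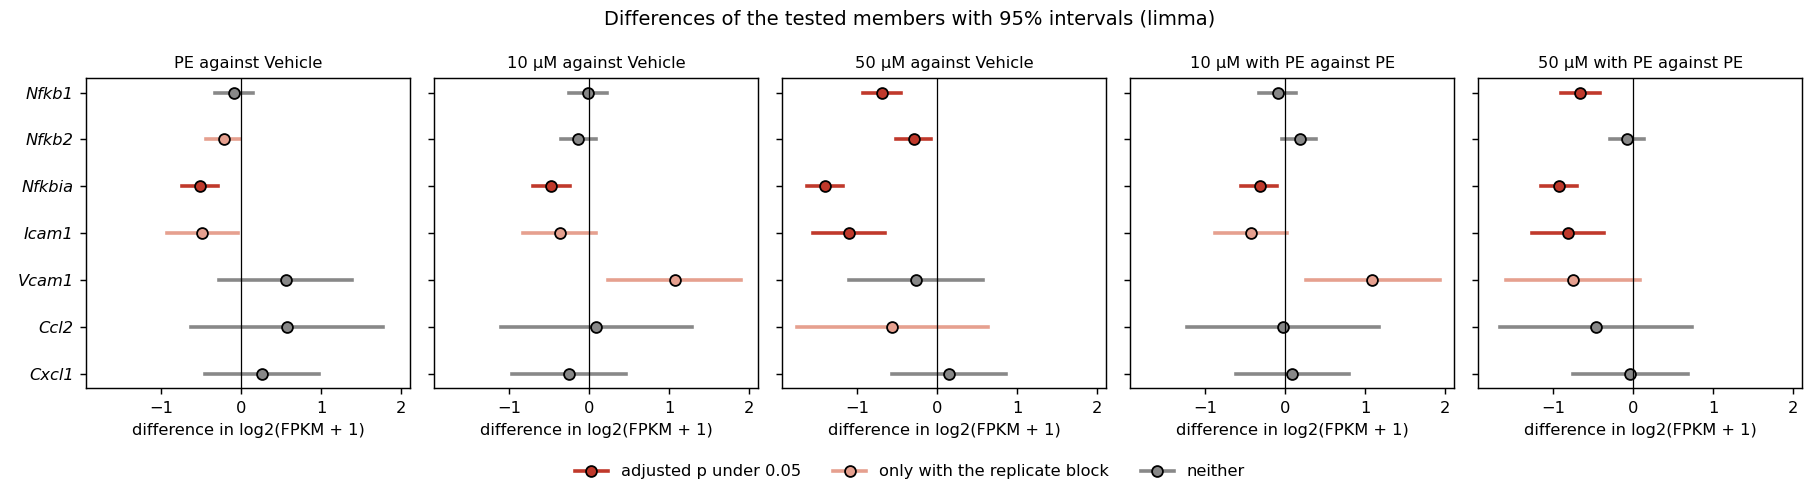
Differences in log2(FPKM + 1) of the 7 tested genes in 5 comparisons (points) with 95% intervals (lines); dark red marks an adjusted p under 0.05, pale red a call made only with the replicate block, grey neither. Nfkbia is dark red in all 5 panels, and Nfkb1 is dark red at 50 µM with PE (-0.66) and without it (-0.69).

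The factor genes came first. Nfkb1 encodes p105, the precursor of the p50 subunit. In replicates 1 to 3 it stood at 23.7, 26.4 and 29.6 FPKM in Vehicle and at 24.7, 26.1 and 23.6 in PE. With 10 µM it stood at 23.6, 26.5 and 28.6 without PE and at 19.9, 23.0 and 27.1 with it. At 50 µM it stood at 15.6, 16.0 and 16.5 without PE and at 15.0, 13.6 and 17.4 with it. The 6 libraries at 50 µM were the 6 lowest of the 18, and the other 4 groups overlapped.

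Nfkb1 therefore differed by the higher dose. It fell at 50 µM by 0.69 ± 0.11 on the log2 scale without PE (± SE, adjusted p = 6.61e-05) and by 0.66 ± 0.11 with PE (adjusted p = 0.000109). Between the doses it fell from 10 to 50 µM by 0.67 ± 0.11 without PE (adjusted p = 0.000134) and by 0.57 ± 0.11 with PE (adjusted p = 0.00075). At 10 µM the difference was -0.02 without PE (95% interval -0.25 to 0.22, adjusted p = 0.943) and -0.09 with it (-0.33 to 0.14, adjusted p = 0.604). PE against Vehicle gave -0.09 (-0.33 to 0.15, adjusted p = 0.572).

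Nfkb2 encodes p100, the precursor of the p52 subunit that pairs with RelB in the non-canonical pathway. It was the steadiest of the tested genes. Its group means spanned 0.3 on the log2 scale, between 10.7 ± 0.543 FPKM in PE with 50 µM and 13.4 ± 0.449 in Vehicle (± SD, n = 3). Vehicle libraries (12.9 to 13.8 FPKM) lay above those of 50 µM alone (9.53 to 12.3). It fell by 0.29 ± 0.1 there (adjusted p = 0.0207). Quantile normalization gave an adjusted p of 0.096 and ended the call. Leaving out 1 library also ended it: the adjusted p was 0.0599 without Vehicle replicate 1, 0.0503 without Vehicle replicate 3, 0.105 without 50 µM replicate 2 and 0.0522 without 50 µM replicate 3. PE against Vehicle gave -0.22 ± 0.1 (adjusted p = 0.11, and 0.0384 with the block), with PE lower in 3 of 3 same-numbered pairs.

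Nfkbia, the feedback inhibitor, changed with each agent. In replicates 1 to 3 it stood at 20.4, 18.7 and 24.0 FPKM in Vehicle and at 16.4, 14.2 and 12.7 in PE. With 10 µM it stood at 13.5, 15.9 and 15.1 without PE and at 11, 11.7 and 11.1 with it. At 50 µM it stood at 7.32, 7.51 and 7.13 without PE and at 6.34, 8.04 and 6.92 with it. The order of the means was Vehicle (21.0 ± 2.67), 10 µM (14.8 ± 1.25), PE (14.4 ± 1.89), PE with 10 µM (11.3 ± 0.382), 50 µM (7.32 ± 0.185) and PE with 50 µM (7.10 ± 0.860). The libraries of 10 µM and PE overlapped, as did those of the groups at 50 µM, and no other neighbours in that order overlapped.

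PE lowered Nfkbia by 0.51 on the log2 scale (log2 difference -0.51 ± 0.11, adjusted p = 0.0019). Without PE, 10 µM lowered it (-0.47 ± 0.11, adjusted p = 0.00755) and 50 µM lowered it further (-1.4 ± 0.11, adjusted p = 3.06e-08), to 0.38 of the Vehicle level on the FPKM + 1 scale. With PE, 50 µM gave -0.93 ± 0.11 (adjusted p = 2.32e-06). The difference at 10 µM with PE was at the threshold (-0.32 ± 0.11, adjusted p = 0.0474). It was lost in 16 of 29 alternatives, with adjusted p from 0.0345 to 0.181 over all of them. Among these were no filter (0.0676), quantile normalization (0.0717) and the omission of any library of PE with 10 µM (0.0782 to 0.128), of PE replicate 1 (0.181) or 2 (0.101), or of 1 library of other groups (Vehicle 1, PE with 50 µM 3, 10 µM 2 or 3, and each of 50 µM; 0.0518 to 0.058). From 10 to 50 µM the level fell by 0.93 ± 0.11 without PE (adjusted p = 3.99e-06) and by 0.6 ± 0.11 with PE (adjusted p = 0.000292).

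Icam1 encodes an adhesion protein that binds leukocyte integrins and is induced by NF-kB in many cells. In replicates 1 to 3 it stood at 45.8, 31.9 and 31.4 FPKM in Vehicle, at 28.7, 23.1 and 24.4 in PE and at 33.5, 23.5 and 26.2 with 10 µM alone. It stood at 23.0, 14.6 and 18.9 in PE with 10 µM, at 22, 16.2 and 11.8 with 50 µM alone, and at 17.2, 12.5 and 12.8 in PE with 50 µM. Replicate 1 was the highest in all 6 groups, and the libraries of either group at 50 µM lay below those of Vehicle.

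Icam1 fell at 50 µM without PE (log2 difference -1.1 ± 0.21, adjusted p = 0.000304) and with PE (-0.81 ± 0.21, adjusted p = 0.00399). Between the doses given alone it was lower at 50 µM (-0.73 ± 0.21, adjusted p = 0.00917); leaving out 50 µM replicate 3 gave an adjusted p of 0.0593. PE against Vehicle gave -0.49 ± 0.21 (adjusted p = 0.0935, and 0.00225 with the block), with PE lower in 3 of 3 same-numbered pairs. At 10 µM the difference was -0.37 ± 0.21 without PE (adjusted p = 0.259, and 0.0195 with the block) and -0.43 ± 0.21 with PE (adjusted p = 0.182, and 0.00813 with the block).

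Vcam1 encodes the adhesion protein that binds the integrin VLA-4 on leukocytes. In replicates 1 to 3 it stood at 4.94, 3.40 and 2.11 FPKM in Vehicle and at 6.69, 6.17 and 3.71 in PE. With 10 µM it stood at 14.1, 8.57 and 4.19 without PE and at 12.4, 11.5 and 14.1 with it. At 50 µM it stood at 4.45, 3.62 and 0.874 without PE and at 3.95, 2.73 and 1.95 with it. PE with 10 µM was the one group above all libraries of Vehicle, of PE and of both groups at 50 µM, and within 10 µM alone the libraries ranged from 4.19 to 14.1.

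The doses of the inhibitor differed for Vcam1. From 10 to 50 µM it fell by 1.85 ± 0.39 with PE (adjusted p = 0.00137) and by 1.33 ± 0.39 without PE (adjusted p = 0.0104), and it was lower in 3 of 3 same-numbered pairs in each. The call without PE was lost without 10 µM replicate 1 (adjusted p = 0.0622) and without 50 µM replicate 3 (adjusted p = 0.068). At 10 µM the difference from the matched control was 1.09 ± 0.39 with PE (adjusted p = 0.0687, and 0.00362 with the block) and 1.07 ± 0.39 without PE (adjusted p = 0.0776, and 0.00437 with the block), higher in 3 of 3 pairs in each. Leaving out 10 µM replicate 3 or 50 µM replicate 3 brought both past the threshold (adjusted p = 0.0435 and 0.0314 with PE, 0.0209 and 0.0372 without it). In the comparison with PE, neither of these libraries belongs to the groups compared. Over all 29 alternatives the adjusted p ran from 0.00362 to 0.230 with PE and from 0.00437 to 0.289 without it. At 50 µM it was -0.75 ± 0.39 with PE (adjusted p = 0.116, and 0.013 with the block) and -0.26 without PE (95% interval -1.1 to 0.57, adjusted p = 0.588).

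In the comparison of the doses with PE, 3 of the 7 genes were called, each lower at 50 µM (Nfkb1, Nfkbia and Vcam1), where 41.2% of all rows were called and 19.9% were called lower. With the block it was 5 (Nfkb2 and Icam1 in addition; 50.9% of all rows). Without PE 4 were called lower (Nfkb1, Nfkbia, Vcam1 and Icam1), where 50.4% of all rows were called and 24.9% were called lower, and with the block 5 (Ccl2 in addition; 59.2%). In either direction the main shares were close to those of all rows, and counted as lower only they were above them; neither was tested.

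Markers of other cells moved along with Icam1 and Nfkbia in part. The summed smooth muscle and pericyte markers were 4449 to 5990 FPKM in Vehicle, 3622 to 5417 in PE, 2996 to 3939 in PE with 10 µM, 3790 to 4948 with 10 µM, 1796 to 2800 with 50 µM, and 1767 to 1941 in PE with 50 µM. The fibroblast markers summed to 1872 to 3144 in Vehicle, 1271 to 2006 in PE, 899 to 1795 in PE with 10 µM, 1720 to 3269 with 10 µM, 1004 to 1354 with 50 µM, and 643 to 1246 in PE with 50 µM. Of 9 tested fibroblast markers 4 fell at 50 µM in each setting, and of 7 smooth muscle and pericyte markers 2 did. Among all rows 27.4% fell at 50 µM with PE and 30.2% without it. The fibroblast median difference was -0.07 with PE and -0.35 without it, and that of smooth muscle and pericyte markers -0.16 and -0.17. In the latter list Acta2 (773 to 2890 FPKM) and Tagln (870 to 3214) led and Myh11, the next, reached 142. Its sum thus rests largely on Acta2 and Tagln. At 10 µM 1 marker of that list rose and 1 fell, with PE (median 0.23) and without it (median 0.15). Of all rows 9.13% rose and 7.84% fell with PE, and 9.17% and 7.01% without it. Col1a2 was at or near the smallest value of the table in every library. The endothelial sum was 6.45 to 9.31 in Vehicle, 7.32 to 10.2 in PE, 5.47 to 6.57 in PE with 10 µM, 5.89 to 9.02 with 10 µM, 2.85 to 6.13 with 50 µM, and 3.38 to 5.48 in PE with 50 µM, with Vwf and Emcn at the smallest value in at least 1 library. Of 4 tested endothelial markers, 2 fell at 50 µM with PE and 1 fell at 50 µM without it. Between the doses without PE 1 fell, where 24.9% of all rows fell. At 10 µM 0 passed, where 17.0% of all rows were called with PE and 16.2% without it. The part of these cells in the falls was not tested.

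The chemokine Ccl2, which draws monocytes, ranged widely within each group. In replicates 1 to 3 it stood at 35.7, 25.9 and 12 FPKM in Vehicle and at 46.1, 42.4 and 19.8 in PE. With 10 µM it stood at 35.5, 25.1 and 15.3 without PE and at 38.8, 41.0 and 23.1 with it. At 50 µM it stood at 21.4, 27.1 and 5.40 without PE and at 29.1, 43.0 and 11.1 with it. Replicate 3 was the lowest library in 6 of 6 groups, and each pair of groups overlapped.

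None of the Ccl2 differences passed without the block. PE against Vehicle gave 0.57 ± 0.56 (adjusted p = 0.473, and 0.0504 with the block), with PE higher in 3 of 3 same-numbered pairs. In the presence of 50 µM PE gave 0.66 ± 0.56 (adjusted p = 0.496, and 0.0425 with the block), and again PE was higher in 3 of 3 pairs. At 50 µM the difference was -0.56 ± 0.56 without PE (adjusted p = 0.409, and 0.0378 with the block) and -0.47 ± 0.56 with PE (adjusted p = 0.503, and 0.0791 with the block), lower in 2 of 3 pairs in each. Leaving out replicate 3, the lowest of every group, from 1 side alone moved these values. Without replicate 3 of the treated group they were 0.1 without PE and 0.06 with it. Leaving out 50 µM replicate 3 likewise left 0.01 for PE in the presence of 50 µM. PE against Vehicle ran from 0.15 without Vehicle replicate 3 to 0.95 without PE replicate 3. With replicate 3 left out of every group, PE against Vehicle gave 0.53 and 50 µM with PE gave -0.31. With a standard error of 0.56, a 95% interval reached from -0.62 to 1.77 for PE against Vehicle. A rise past 2-fold on that scale lay within it, and a 2-fold fall did not.

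The macrophage and leukocyte markers followed replicate numbers as well. Their sum was lowest in replicate 3 in 6 of 6 groups (18.2 to 76.6 FPKM), against 51.5 to 92.9 in replicate 1 and 89.8 to 400 in replicate 2. By group it was 38.1 to 121 in Vehicle, 18.2 to 89.8 in PE, 27.3 to 248 in PE with 10 µM, 21.0 to 241 in PE with 50 µM, 76.6 to 400 with 10 µM, and 30.8 to 181 with 50 µM. All 8 markers had a row, Lyz2 led (13.7 to 355 FPKM), and Aif1 stood at the smallest value in at least 1 library. Of the 7 tested, 0 passed for PE against Vehicle (30.6% of all rows) and for 50 µM with PE (56.7%). For 50 µM without PE 1 fell (30.2% of all rows fell). The highest Ccl2 in a group was in replicate 1 in Vehicle, PE and 10 µM and in replicate 2 in the other groups, so the order of Ccl2 was not that of the marker sum throughout. The part of these cells in the Ccl2 levels was not tested.

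**Figure D3:**
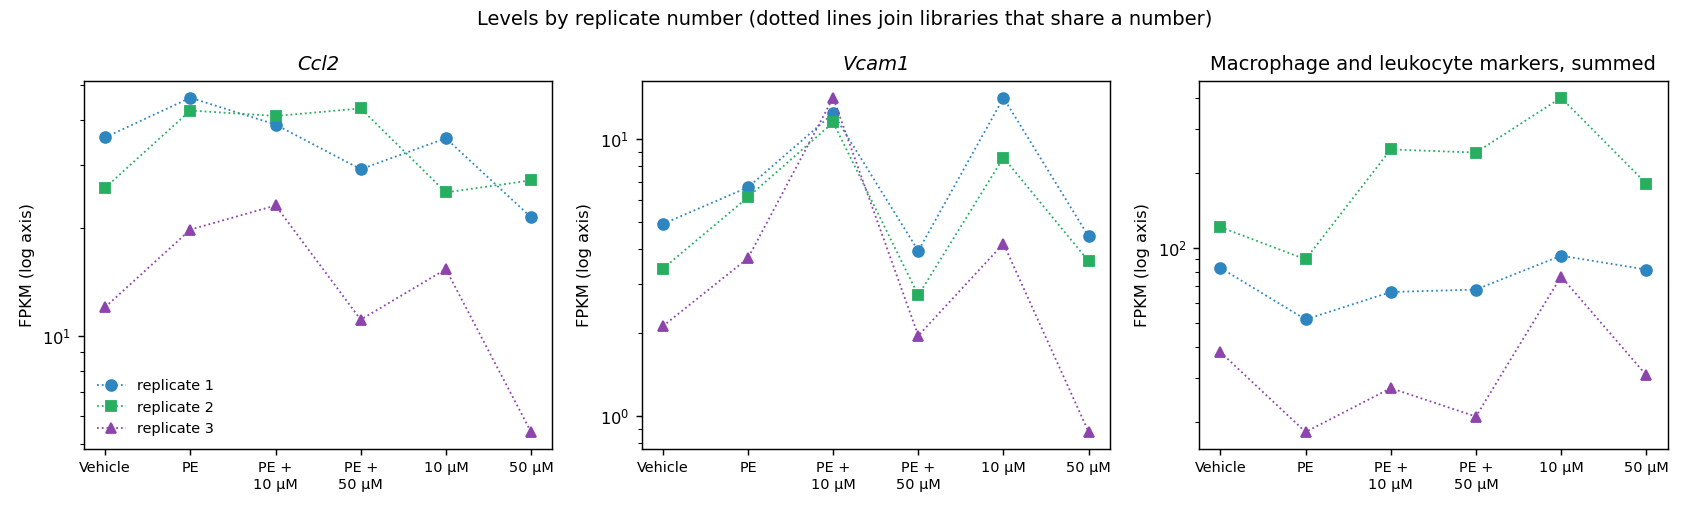
FPKM (log axes) of Ccl2, Vcam1 and the summed 8 macrophage and leukocyte markers in the 6 groups, 1 marker per library; dotted lines join libraries that share a replicate number and do not stand for time. Replicate 3 is the lowest in every group for Ccl2 and the marker sum, and for Vcam1 in 5 of 6 groups, PE with 10 µM being the exception.

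Cxcl1, a neutrophil chemokine, and Il6, the acute-phase cytokine, were low. Cxcl1 group ranges were 1.02 to 2.42 FPKM in Vehicle, 1.13 to 3.21 in PE, 1.45 to 2.83 in PE with 10 µM, 1.19 to 2.56 in PE with 50 µM, 0.487 to 1.60 with 10 µM and 0.645 to 3.00 with 50 µM. All these ranges overlapped, and none of its comparisons passed. PE against Vehicle gave 0.26 (95% interval -0.45 to 0.97, adjusted p = 0.594). Il6 ranged from 0.144 to 0.273 FPKM in Vehicle, from 0.160 to 0.434 in PE, from 0.174 to 0.355 in PE with 10 µM and from 0.265 to 0.419 in PE with 50 µM. Without PE it was at most 0.259 with 10 µM and at most 0.174 with 50 µM, and replicate 3 of each stood at 0.01, the smallest value of the table. With no filter on low values, PE in the presence of 50 µM gave 0.3 ± 0.09 for Il6 (adjusted p = 0.0553), and the groups did not overlap; at this level the pseudocount of 1 holds such differences down.

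The response to PE was then compared with and without the inhibitor. In the presence of 10 µM, PE called 1 of 7 genes (Nfkbia, lower, -0.37 ± 0.11, adjusted p = 0.0151), where 32.5% of all rows were called and 13.6% were called lower. That call was lost without 10 µM replicate 2 or 3 (adjusted p = 0.0612 and 0.0501). With the block 2 were called (Icam1 in addition, -0.54, adjusted p = 0.000911; 44.3% of all rows). In the presence of 50 µM limma called 0 of 7 (0 at an unadjusted p under 0.05), where 14.3% of all rows were called, and with the block 1 (Ccl2; 23.8% of all rows). Nfkbia then differed by -0.04 (95% interval -0.27 to 0.18, adjusted p = 0.848).

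The difference between the PE responses was tested as an interaction. At 10 µM limma called 0 of 7 genes (1 at an unadjusted p under 0.05, Nfkb2), where 0.305% of all rows were called. At 50 µM it called 0 of 7 (1 at an unadjusted p under 0.05, Nfkbia), where 7.01% of all rows were called. For Nfkbia the PE response was 0.47 ± 0.15 less negative with 50 µM (95% interval 0.15 to 0.79, adjusted p = 0.0708). It passed with the block (adjusted p = 0.0465; 16.1% of all rows were then called) and without PE replicate 1 (adjusted p = 0.0499). For Vcam1 the interval was -1.16 to 1.21 at 10 µM and -1.67 to 0.69 at 50 µM. The first holds a change by a factor of 2 (1 on the log2 scale) in the ratio of PE to its control, upward or downward. The second holds such a change downward only.

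Other genes of the pathway were described from 4 lists with no listed member among them. Of the NF-kB core and the IkB kinase complex, 12 of 17 genes were tested. At 50 µM 4 rose and 6 fell with PE, and 3 rose and 6 fell without it; of all rows 29.3% rose and 27.4% fell with PE, and 30.5% rose and 30.2% fell without it. Nfkbib, which encodes IkB beta, went the other way from Nfkbia: it rose from 12 ± 0.863 to 24.0 ± 3.17 FPKM with PE (log2 difference 0.94 ± 0.14, adjusted p = 3.47e-05) and from 8.62 ± 1.97 to 23.8 ± 2.43 without it (1.38 ± 0.14, adjusted p = 5.62e-07). Nfkbiz, the nuclear IkB zeta, fell from 4.14 ± 0.928 to 1.63 ± 0.230 FPKM with PE (-0.95 ± 0.15, adjusted p = 5.02e-05). It also fell without PE (-0.74 ± 0.15, adjusted p = 0.000416). Nfkbie, IkB epsilon, fell from 5.79 ± 0.173 to 2.73 ± 0.523 without PE (-0.87 ± 0.12, adjusted p = 1.56e-05) and fell with it (-0.54 ± 0.12, adjusted p = 0.00144). Chuk, the kinase IKK alpha, rose from 23.9 ± 0.274 to 33.2 ± 1.33 with PE (0.46 ± 0.07, adjusted p = 2.36e-05) and rose without it (0.34 ± 0.07, adjusted p = 0.000364). The factor gene Rela fell at 50 µM with PE (-0.33 ± 0.07, adjusted p = 0.00125) and without it (-0.32 ± 0.07, adjusted p = 0.00152). Its call at 10 µM with PE (-0.23 ± 0.07, adjusted p = 0.0414) was lost in several alternatives, with adjusted p up to 0.166. The list's median difference at 50 µM was -0.11 with PE and -0.13 without it, beside 0.00 and -0.01 over all tested rows.

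Of the receptors and adaptors, 19 of 20 were tested, and at 50 µM 1 rose and 7 fell with PE (median -0.24) and 2 rose and 6 fell without it (median -0.24). Of all rows 29.3% rose and 27.4% fell with PE, and 30.5% rose and 30.2% fell without it. Il1rap, the accessory chain of the interleukin-1 receptor, fell from 12.1 ± 2.06 to 3.07 ± 0.497 FPKM with PE (-1.68 ± 0.22, adjusted p = 8.99e-06). It also fell at 10 µM with PE, to 4.99 ± 1.70 (-1.16 ± 0.22, adjusted p = 0.0024). At 50 µM without PE Il1rap fell as well (-0.72 ± 0.22, adjusted p = 0.0103, and 0.0747 with quantile normalization). Traf3, an adaptor of the receptor complexes, fell at 50 µM with PE (-0.71 ± 0.08, adjusted p = 2.49e-06) and without it (-0.72 ± 0.08, adjusted p = 1.69e-06). Tlr3, the receptor for double-stranded RNA, fell at 50 µM without PE (-0.77 ± 0.13, adjusted p = 9.36e-05) and with it (-0.48 ± 0.13, adjusted p = 0.00535).

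Of 13 genes of feedback and survival, 12 were tested. PE against Vehicle raised 2 and lowered 0 of them (17.9% of all rows rose). Ier3, an immediate early gene, rose from 89.1 ± 12.3 to 183 ± 25.9 FPKM (1.03 ± 0.15, adjusted p = 0.000128), and Zc3h12a, whose product degrades inflammatory messenger RNAs, rose from 3.83 ± 0.308 to 6.85 ± 0.642 (0.7 ± 0.13, adjusted p = 0.000859). At 50 µM 1 rose and 5 fell with PE (29.3% and 27.4% of all rows), and 3 rose and 4 fell without it (30.5% and 30.2%). Ier3 fell to 78.1 ± 6.56 FPKM with PE (-1.21 ± 0.15, adjusted p = 5.99e-06) and to 40.9 ± 8.24 without it (-1.11 ± 0.15, adjusted p = 1.12e-05). The A20-binding inhibitors Tnip1 and Tnip2 parted at 50 µM with PE: Tnip1 fell (-0.71 ± 0.11, adjusted p = 3.52e-05) and Tnip2 rose (0.97 ± 0.17, adjusted p = 0.000124). They parted without PE too, Tnip1 falling (-0.5 ± 0.11, adjusted p = 0.000746) and Tnip2 rising (0.86 ± 0.17, adjusted p = 0.000324).

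Of 30 other inflammatory targets, 15 were tested. At 50 µM 2 rose and 4 fell with PE (29.3% and 27.4% of all rows), and 2 rose and 3 fell without it (30.5% and 30.2%). Ccl7, a monocyte chemokine like Ccl2, rose from 6.67 ± 2.18 to 41.2 ± 19.1 FPKM with PE (2.4 ± 0.39, adjusted p = 7.55e-05) and from 4.28 ± 1.39 to 14.1 ± 6.50 without it (1.46 ± 0.39, adjusted p = 0.0041). Csf1, a growth factor of macrophages, fell with PE (from 28.1 ± 0.988 to 20.3 ± 2.07 FPKM, -0.45 ± 0.11, adjusted p = 0.00588). It fell further to 12.6 ± 1.79 at 10 µM (-0.65 ± 0.11, adjusted p = 0.00109) and to 12 ± 1.85 at 50 µM (-0.72 ± 0.11, adjusted p = 4e-05). Without PE Csf1 also fell, to 20.2 ± 0.708 at 10 µM (-0.46 ± 0.11, adjusted p = 0.0105) and to 15.9 ± 0.880 at 50 µM (-0.79 ± 0.11, adjusted p = 1.48e-05). At 10 µM few of the 58 tested genes of the 4 lists were called: 1 rose and 5 fell with PE, where 9.13% of all rows rose and 7.84% fell, and 2 rose and 5 fell without it, where 9.17% rose and 7.01% fell. These comparisons share their control libraries, PE or Vehicle, so their lists are not independent. The interaction called 0 of the 58 genes at 10 µM (0.305% of all rows) and 0 at 50 µM (7.01%).

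**Figure D4:**
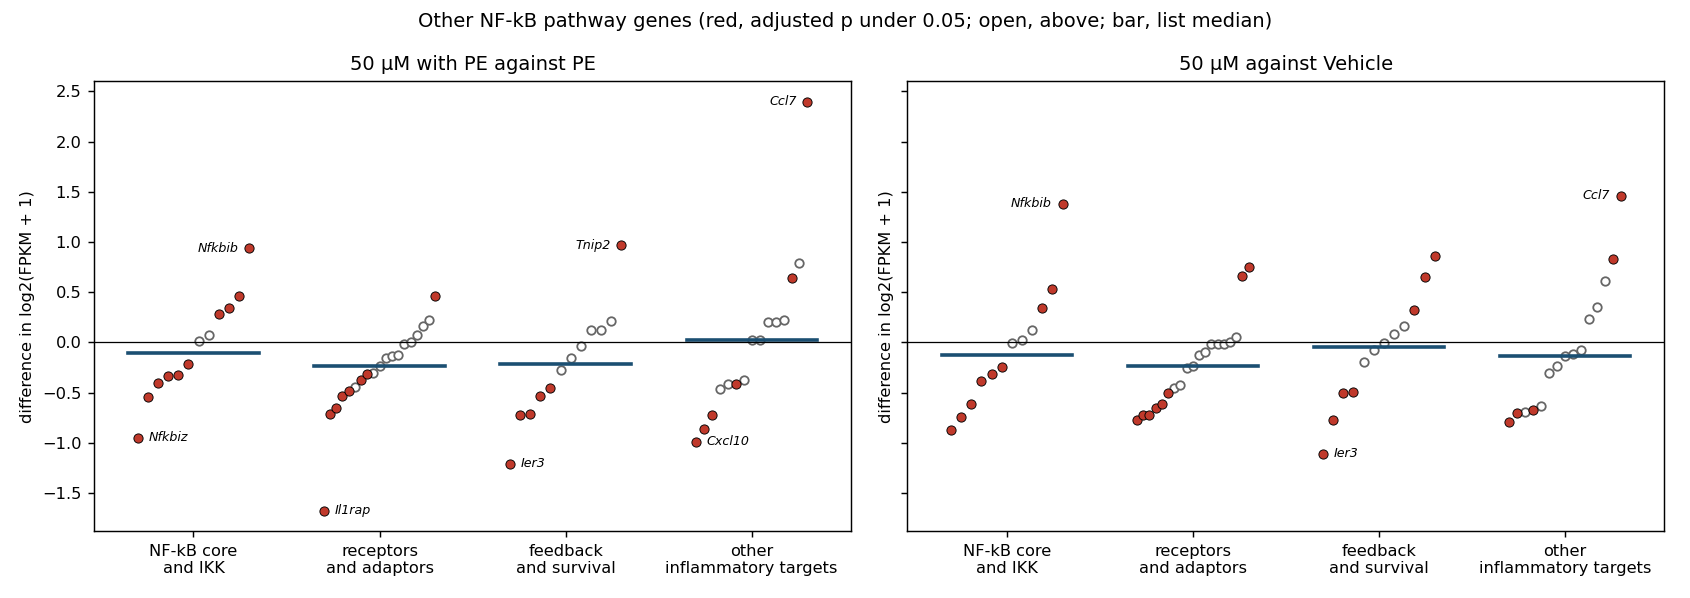
Differences in log2(FPKM + 1) of the tested genes of 4 pathway lists at 50 µM with PE (left) and without it (right); filled red points have an adjusted p under 0.05, open points do not, and the bar is the list's median. Points lie on both sides of 0 in each list, with Ccl7 highest (2.4) and Il1rap lowest (-1.68) on the left.

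Genes with the most similar profiles were found by the root-mean-square difference of centred log2 levels over the 18 libraries, for the 4 genes whose group means spanned at least 1. For Nfkbia they were Cd48 (difference 0.16), Zfpm2 (0.17) and Bcl11a (0.17). For Icam1 they were Ets1 (0.16), the cytoplasmic actin gene Actb (0.16) and Loxl3 (0.17). Mean Actb was 1648 FPKM in Vehicle against 1323 with 10 µM and 790 with 50 µM, and with PE it was 1236 alone, 917 with 10 µM and 685 with 50 µM. For Vcam1 Grem1 (0.43) and Pdlim3 (0.45) were among the nearest, and for Ccl2 they were Prss23 (0.44), Tppp3 (0.45) and Esm1 (0.45). Over the 6 group means in place of the libraries, Actb and Grem1 were again among the nearest 3 and the other names differed. Such likeness is a description of these libraries.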

How the data were processed

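FPKM values, deposited by the authors as a single table, were made with Bowtie2, Cufflinks and the rn5 build, per the submitters' processing notes; polyadenylated RNA was used, per the labels. Versions, annotation, strand use and filters are not given in the sources used here. FPKM is scaled to each library's mapped fragments, so a change in abundant genes shifts all others. They were put on the log2(FPKM + 1) scale and fitted in limma 3.58.1 (R 4.3.3) (variance trend, 6 group means in 1 model, 12 residual degrees of freedom) on 10478 rows, those reaching 1 FPKM in 3 libraries or more, Benjamini-Hochberg adjusted per comparison; the fit was checked on simulated data. The median SE was 0.118, and 0.167 for interactions. Intervals (95%) are limma's. Replicate numbers paired the libraries by their data: deviations from group means correlated by 0.213 to 0.587 in 45 same-numbered pairs and by -0.462 to 0.0949 in 90 others; the labels name no source. The genes and lists were chosen with earlier results of these data known. Named were all listed genes with a row, up to 4 called genes of a pathway list per comparison, by size, and the 3 most similar profiles, of which 1 is not reported here. Promoters came from RefSeq (GRCr8). Alternatives were other pseudocounts (0.1, 0.5), filters (none, 5 FPKM) and scalings, compared groups only, the block, no trend, array weights, and omission of each library. Scripts ran in Python 3.11.15, pandas 2.3.3, numpy 2.4.6 and matplotlib 3.10.9.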

Additional observations from a re-analysis of the deposited data

How the results depend on the processing

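Of 2222 differences of the 7 tested genes under 29 alternatives, 2154 kept their side of the threshold, 31 lost a call, 37 gained one and 0 reversed among called values; 74 changed sign where neither value was called. The replicate block gained 14 calls and lost 0. It moved the number of called genes to 3 from 1 for PE against Vehicle and for 10 µM with and without PE, to 2 from 1 for PE at 10 µM, to 1 from 0 for PE at 50 µM, to 5 from 3 for the doses with PE and to 1 from 0 for the interaction at 50 µM. The block also moved it to 4 from 3 for 50 µM with PE and to 5 from 4 for 50 µM alone and for the doses without PE. Array weights gave 3 for PE and 2 for 10 µM with PE, a fit of the compared groups gave 2 for PE, and no filter or quantile normalization gave 0 for 10 µM with PE. Without replicate 3 of every group, chosen after seeing the data, 0 were called for PE, for 10 µM with PE and for PE at 10 µM. Nfkbia then had an adjusted p of 0.106 for PE and 0.105 for 10 µM alone; fewer libraries enter that fit. Leaving out 1 library gave 1 to 2 called genes for PE and for 10 µM alone, 0 to 1 for 10 µM with PE, 3 to 3 for 50 µM with PE, 3 to 4 for 50 µM alone and for the doses with PE, 2 to 4 for the doses without PE, 0 to 2 for PE at 10 µM, 0 to 0 for PE at 50 µM and for the interaction at 10 µM, and 0 to 1 for the interaction at 50 µM. Read depth was not given, so low genes such as Il6 and Cxcl1 carry an unknown counting error.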
